A study of Mus musculus with 22 samples.

Results

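MHC class II molecules carry peptides of engulfed antigen to the surface of dendritic cells, where CD4+ T cells read them. The genes described here are the 10 that make and load those molecules, H2-Aa, H2-Ab1, H2-Eb1, H2-DMa, H2-DMb1, H2-DMb2, H2-Oa, H2-Ob, Cd74 and Ciita, taken by name from the 34047 genes of the count table, together with the 65 windows of open chromatin, of 177956 in all, that lay within 5 kb of them. All 10 genes were counted in all 16 RNA libraries and passed the filter on low counts in every comparison.

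RNA-seq and ATAC-seq, a measure of open chromatin, were run on conventional dendritic cells (cDCs) of Tbx21RFP-cre mice, a line in which red fluorescent protein (RFP) reports the transcription factor T-bet; the animals were 6 to 10 weeks old, of both sexes, and untreated as far as the labels say. From spleen, RNA was sequenced from 3 libraries each of cDC1, T-bet- cDC2 and T-bet+ cDC2, and from mesenteric lymph node (MLN) from 3 libraries of cDC1 and 2 each of T-bet- and T-bet+ cDC2, each made from cells of 2 mice pooled. ATAC-seq covered 2 spleen libraries of each subset. cDC1 were sorted as CD11b-XCR1+ cells, T-bet+ cDC2 as CD11b+XCR1-RFP+ cells and T-bet- cDC2 as CD11b+XCR1-RFP- cells, all from lineage-negative CD64-Ly6C-CD11c+MHCII+ cells. Every library thus comes from cells chosen for surface MHC class II, whose chains H2-Aa, H2-Ab1 and H2-Eb1 encode. The sex behind each library is not given, all groups carry the reporter allele, and the p-values measure the spread between these libraries.

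Spleen libraries held 20993220 to 27317480 counts, of which the 10 genes took 8.60% to 17.2%, and MLN libraries held 22733964 to 29006549 counts, of which they took 3.60% to 9.85%. ATAC-seq libraries held 7270164 to 10081555 reads in windows. Levels are given in CPM, counts relative to the library total as scaled by edgeR's TMM factors. Tbx21, which encodes T-bet, stood at 17.2 to 24.9 CPM in spleen T-bet+ cDC2 and at 0.145 to 2.38 CPM in the other spleen libraries, and at 2.93 to 7.18 CPM in MLN T-bet+ cDC2 against 0.243 to 0.918 CPM in the other MLN libraries. Xcr1, the chemokine receptor that defines cDC1, stood at 445 to 1219 CPM in cDC1 and at 4.44 to 34.0 CPM in cDC2.

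In MLN, 2 libraries stood apart from the others in the genes of mature migratory dendritic cells. Ccr7, the receptor that leads them to lymph nodes, was at 2555 CPM in cDC1 replicate 1 and at 2172 CPM in T-bet+ cDC2 replicate 1, against 7710 to 9738 CPM in the other 5 MLN libraries. Both carry the number 1 in their library names, which no MLN T-bet- library does. Results that rest on MLN are therefore given with and without both.

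Among the markers of other cell types, the 3 of T cells summed to at most 5.42 CPM in any library, and the 4 of plasmacytoid dendritic cells to 98.2 to 244 CPM, while the 3 markers of cDCs themselves summed to 698 to 1636 CPM. The 5 monocyte and macrophage markers summed to 537 to 775 CPM in spleen T-bet- cDC2, 367 to 438 CPM in T-bet+ cDC2 and 16.9 to 24.0 CPM in cDC1. The 7 B cell markers summed to 196 to 225, 275 to 333 and 56.3 to 104 CPM in the same order. Of these, Cd22 reached 269 CPM in spleen T-bet+ cDC2, Cd79b 110.4 CPM in spleen T-bet- cDC2 and Ms4a1 75.6 CPM in spleen cDC1, while Cd79a, Pax5 and Ebf1 each stayed at or below 3.97 CPM in every library. The part of these cell types in the results was not tested, and in bulk libraries fewer cells of a type and less RNA per cell cannot be told apart.

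The α and β chains of the classical class II molecules, encoded by H2-Aa with H2-Ab1 (I-A) and by H2-Eb1 (the β chain of I-E), pair in the endoplasmic reticulum with the invariant chain, the product of Cd74, which blocks their groove and leads them to endosomes. There the H2-DM heterodimer, of H2-DMa with either H2-DMb1 or H2-DMb2, swaps the remnant of the invariant chain for antigen peptide, and the H2-DO heterodimer, of H2-Oa and H2-Ob, restrains H2-DM. Ciita encodes the coactivator that binds the factors sitting on the X and Y boxes of these promoters, and is itself transcribed from several promoters that cell types use to different extents.

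Most of these genes lie in one stretch of chromosome 17, within which H2-Oa (chr17:34092340-34095234, plus strand) and H2-Eb1 (chr17:34305867-34316674, plus strand) mark both ends in build GRCm38. Between them sit H2-DMa (chr17:34119541-34139101), H2-DMb2 (chr17:34143307-34151555), H2-DMb1 (chr17:34153072-34160230), H2-Ob (chr17:34238903-34254414) and H2-Ab1 (chr17:34257689-34269419) on the plus strand and H2-Aa (chr17:34282744-34287823) on the minus strand. Ciita is at chr16:10480059-10528418 on the plus strand, and Cd74 lies elsewhere. H2-DMa overlaps Brd2 and antisense genes, H2-Eb1 and H2-Oa each overlap an antisense gene (Gm20513 and BC051537), and Ciita overlaps Dexi. Whether counting used strand is not given in the sources used here, so reads of these pairs may be shared.

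The sequences below carry the results on chromatin and show what the promoters hold. Capitals mark the X1 core, GCAACNG, and the Y box, ATTGG, searched on both strands, so that a Y box on the other strand reads CCAAT. Only exact matches count, so a sequence that differs in a letter is not marked, such as the gcaacaa before the Y box of H2-Ob and of H2-Oa. Whether such sequences serve as X boxes was not tested. The first is the RefSeq promoter of H2-Eb1 (build GRCm38.p6), the only one of the 8 RefSeq promoter entries found for members that held both motifs, and the others are 5 of the 9 windows of open chromatin called between the cDC2 subsets, those at H2-Ob and H2-DMb2 and the most different window of each of 2 regions of Ciita, read from the same build on the plus strand.
H2-Eb1 promoter, chr17:34305717-34305866, plus strand: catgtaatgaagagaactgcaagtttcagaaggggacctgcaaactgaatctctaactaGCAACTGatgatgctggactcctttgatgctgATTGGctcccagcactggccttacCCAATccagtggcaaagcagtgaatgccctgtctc
H2-Ob window, chr17:34238743-34238892: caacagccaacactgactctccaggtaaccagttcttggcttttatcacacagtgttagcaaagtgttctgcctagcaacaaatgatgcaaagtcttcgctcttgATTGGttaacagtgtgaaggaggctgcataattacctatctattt
H2-Ob window, chr17:34238559-34238708: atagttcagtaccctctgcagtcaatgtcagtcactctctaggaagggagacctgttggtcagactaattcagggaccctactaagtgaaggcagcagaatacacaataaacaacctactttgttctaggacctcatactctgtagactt
H2-DMb2 window, chr17:34143136-34143285: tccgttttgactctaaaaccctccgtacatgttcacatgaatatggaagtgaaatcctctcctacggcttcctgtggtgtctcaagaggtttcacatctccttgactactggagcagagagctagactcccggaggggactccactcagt
Ciita window in intron 1, chr16:10500629-10500778: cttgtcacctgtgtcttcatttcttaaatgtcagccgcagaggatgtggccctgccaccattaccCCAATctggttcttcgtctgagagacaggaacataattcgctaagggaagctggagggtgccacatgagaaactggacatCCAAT
Ciita window in intron 12, chr16:10516079-10516228: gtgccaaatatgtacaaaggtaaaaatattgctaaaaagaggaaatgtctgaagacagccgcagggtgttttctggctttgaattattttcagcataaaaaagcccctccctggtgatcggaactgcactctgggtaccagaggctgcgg

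In the H2-Eb1 promoter the X1 core began at -91 from the RefSeq start and was followed by 2 Y boxes, the nearer of which began 32 bases after it. An X1 core followed by a Y box 15 to 40 bases on occurred in 0.478% of 32851 promoters of 250 bases, while an X1 core occurred in 10.2%, a Y box in 33.8% and both in 3.37%. A Y box was found in 7 of the 8 entries, at -57 in H2-Ob, -48 in H2-Aa, -90 in H2-DMb2, -61 in H2-DMb1, -43 in H2-Oa and -198 at the second start of H2-DMa, and in none at the first start of H2-DMa. Promoter sequences of H2-Ab1, Cd74 and Ciita are not shown here. Of the windows printed, the H2-Ob window at -86 held 1 Y box and the Ciita window in intron 1 held 2, and the other 3 held neither motif.

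**Figure D1:**
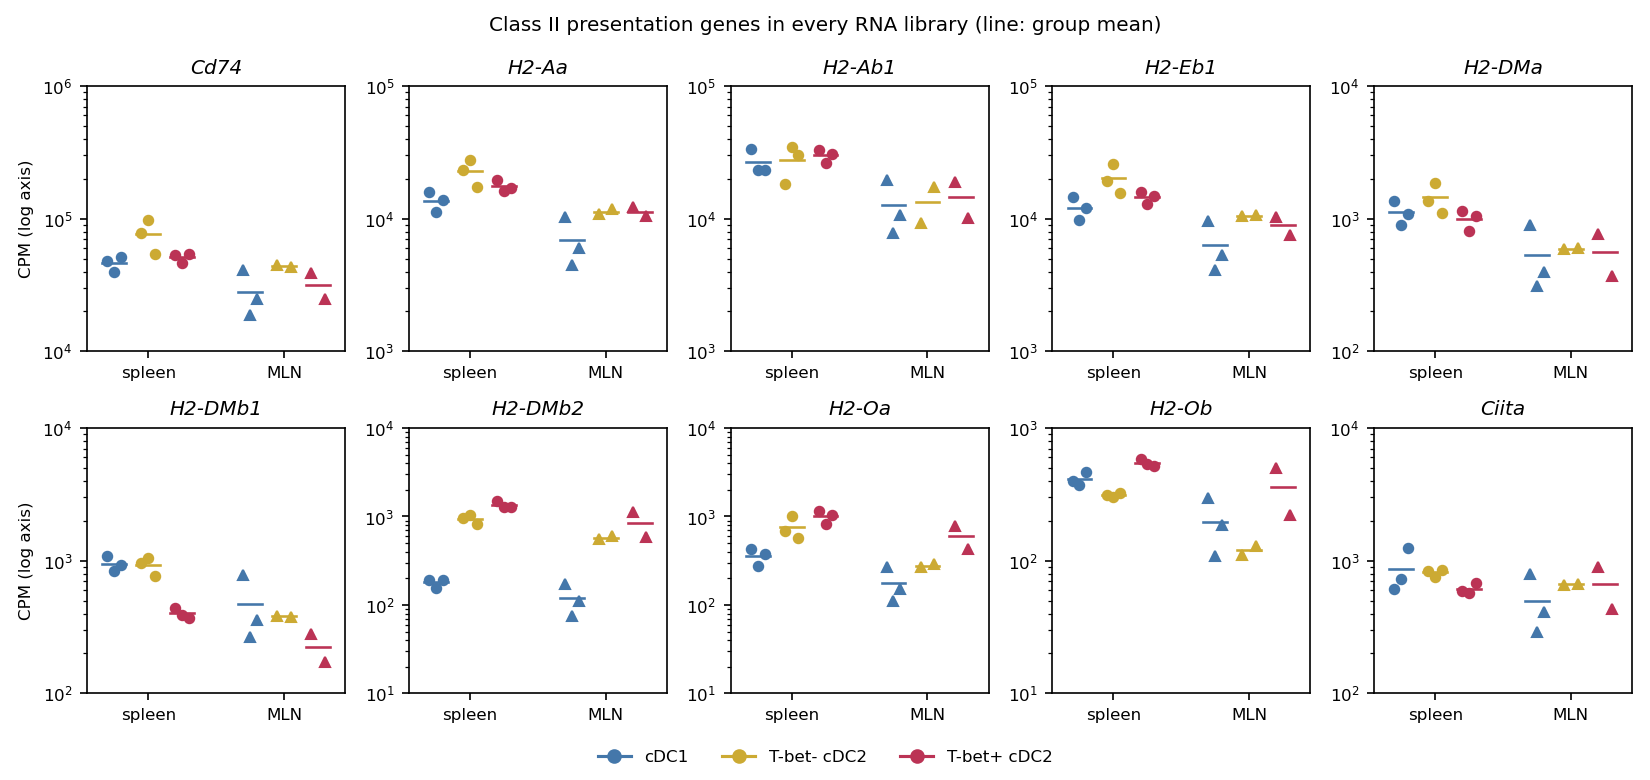
CPM (log axis) of the 10 genes in each of the 16 RNA libraries, spleen as circles and MLN as triangles, coloured by subset, with a line at each group's mean. H2-DMb1 was lowest in spleen T-bet+ cDC2 among the spleen groups while H2-DMb2 was lowest in cDC1, and most MLN groups lay below the spleen group of the same subset.

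Per kilobase of exon, the 10 genes covered a wide range of levels in spleen cDC1, from 76.4 ± 9.13 CPM per kb (SD, n = 3) for H2-Ob and 90.4 ± 35.4 for Ciita to 27554 ± 3466 for Cd74. H2-Ab1 followed at 10423 ± 2304 CPM per kb, H2-Eb1 at 6215 ± 1211 and H2-Aa at 3595 ± 599. The peptide loading genes were far below these, at 564 ± 74.7 CPM per kb for H2-DMb1, 323 ± 70.0 for H2-DMa, 257 ± 54.4 for H2-Oa and 103 ± 12.3 for H2-DMb2. H2-Ob and Ciita, next to each other at the bottom of this order, did not differ beyond their spread, nor did H2-DMa and H2-Oa. Length is that of all annotated exons of a gene merged, 3798 bases for H2-Aa and 1944 for H2-Eb1, whichever transcripts the cells use. The order between genes therefore depends on the annotation as well. In CPM, H2-Aa stood above H2-Eb1 in each spleen cDC1 library. In spleen T-bet+ cDC2 the order within the loading genes was another, with H2-DMb2 at 777 ± 67.3 CPM per kb and H2-Oa at 715 ± 120 above H2-DMa at 290 ± 49.9 and H2-DMb1 at 239 ± 21.9.

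The invariant chain and the classical chains were the most abundant of the 10, and no difference between spleen subsets that passed the test was above 1.67-fold. Cd74 stood at 47727, 39851 and 51210 CPM in the 3 spleen cDC1 libraries, at 77604, 97653 and 53989 in T-bet- cDC2 and at 53120, 46443 and 54328 in T-bet+ cDC2. The T-bet- libraries were all above cDC1, whereas T-bet+ cDC2 overlapped both. H2-Aa, the I-A α chain, was at 15855, 11310 and 13791 CPM in cDC1, 23330, 27503 and 17270 in T-bet- cDC2 and 19460, 16089 and 17070 in T-bet+ cDC2. H2-Eb1 was at 14488, 9783 and 11977 CPM in cDC1, 19134, 25794 and 15703 in T-bet- cDC2 and 15977, 12974 and 14935 in T-bet+ cDC2. For H2-Aa both cDC2 subsets lay above cDC1, and for H2-Eb1 only T-bet- cDC2 did. H2-Ab1, the I-A β chain, was at 33597, 23410 and 23289 CPM in cDC1, 18349, 34622 and 30429 in T-bet- cDC2 and 32838, 26372 and 30929 in T-bet+ cDC2, so that all 3 subsets overlapped.

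Relative to cDC1, T-bet- cDC2 had 1.66-fold more H2-Aa (log2 fold change 0.74, SE 0.19, edgeR adjusted p = 0.0304), 1.67-fold more H2-Eb1 (0.74, SE 0.21, adjusted p = 0.0399) and 1.65-fold more Cd74 (0.73, SE 0.20, adjusted p = 0.0390). These calls were close to the threshold. DESeq2 gave adjusted p values of 0.0568, 0.0680 and 0.0816 for the same genes, and over all 14 alternatives H2-Aa was called in 6, Cd74 in 4 and H2-Eb1 in 3. H2-Ab1 differed by 0.06 on the log2 scale between these subsets (95% interval -0.48 to 0.59, adjusted p = 0.906). Between T-bet+ and T-bet- cDC2 no classical chain passed the test, with log2 differences of -0.37 for H2-Aa (adjusted p = 0.352), -0.46 for H2-Eb1 (adjusted p = 0.274), 0.11 for H2-Ab1 (adjusted p = 0.836) and -0.57 for Cd74 (adjusted p = 0.160). The interval for H2-Aa ran from -0.80 to 0.06 and that for Cd74 from -1.03 to -0.12.

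The β chains of H2-DM separated the 3 subsets. H2-DMb1 stood at 1082, 832 and 929 CPM in spleen cDC1, at 957, 1045 and 772 in T-bet- cDC2 and at 444, 390.2 and 373 in T-bet+ cDC2. The T-bet+ libraries lay below all of the others, while cDC1 and T-bet- cDC2 overlapped. H2-DMb2 was at 193, 156 and 193 CPM in cDC1, 954, 1031 and 827 in T-bet- cDC2 and 1494, 1296 and 1285 in T-bet+ cDC2, with no overlap between any of the 3 groups. H2-DMa, their common α chain, was at 1371, 893 and 1077 CPM in cDC1, 1367, 1872 and 1113 in T-bet- cDC2 and 1144, 810.5 and 1050.1 in T-bet+ cDC2, and its groups overlapped throughout.

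H2-DMb1 was 2.29-fold lower in T-bet+ than in T-bet- cDC2 (log2 fold change -1.20, SE 0.18, edgeR adjusted p = 0.00564) and 2.35-fold lower than in cDC1 (-1.23, SE 0.18, adjusted p = 0.00135). H2-DMb2 was 7.53-fold higher in T-bet+ cDC2 than in cDC1 (2.91, SE 0.18, adjusted p = 6.8e-06) and 5.19-fold higher in T-bet- cDC2 than in cDC1 (2.38, SE 0.17, adjusted p = 2.2e-05). The comparisons share libraries, and all of these calls were made under each of the 14 alternatives. The difference in H2-DMb2 between T-bet+ and T-bet- cDC2 was 0.54 (SE 0.17) and did not pass after adjustment over all genes (adjusted p = 0.107). H2-DMa did not pass in any spleen comparison, with log2 differences of -0.53, -0.15 and 0.38 for T-bet+ against T-bet- cDC2, T-bet+ cDC2 against cDC1 and T-bet- cDC2 against cDC1.

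H2-DMb1 and H2-DMb2 are close copies: transcripts H2-DMb1-201 (1404 bases) and H2-DMb2-201 (1424 bases) were 94.4% identical over 1255 aligned bases. Of the 50-base stretches of H2-DMb1, 27.2% also occurred in another gene, as did 24.8% of those of H2-DMb2, against 0 for the other 8 genes. Only uniquely aligned reads were kept by the authors, so reads from the shared stretches may be missing from both genes. How many were lost was not measured, and the levels of both genes are uncertain to that extent.

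**Figure D2:**
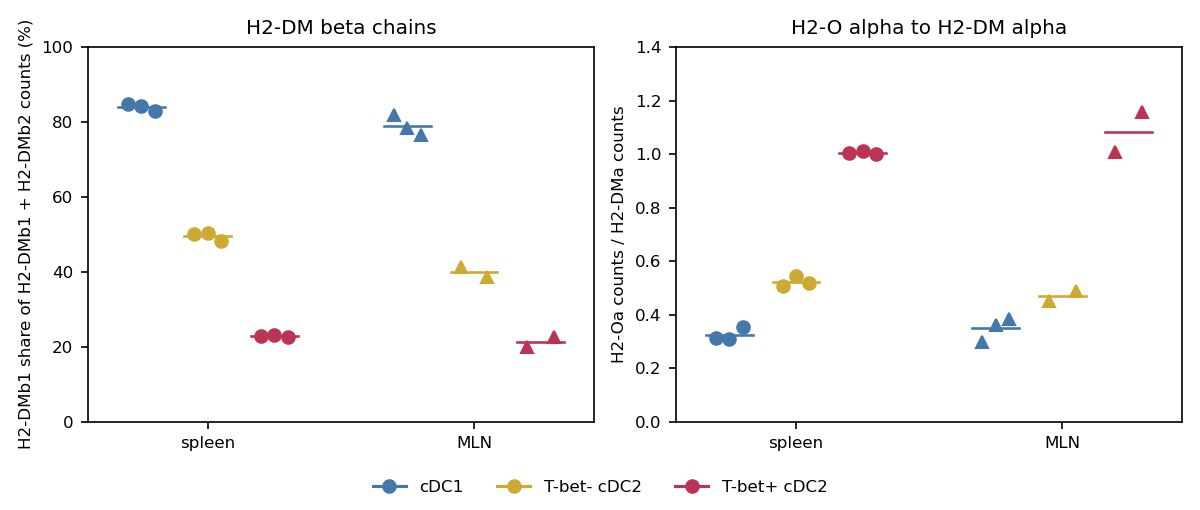
H2-DMb1 as a percentage of the summed CPM of H2-DMb1 and H2-DMb2 (left) and the CPM of H2-Oa divided by that of H2-DMa (right) in each RNA library, with lines at group means. The H2-DMb1 share fell into 3 bands in spleen, near 84.0%, 49.6% and 22.9%, and the MLN libraries lay in the same order.

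As a share of both β chains, H2-DMb1 made up 84.9%, 84.2% and 82.8% in spleen cDC1, 50.1%, 50.3% and 48.3% in T-bet- cDC2 and 22.9%, 23.1% and 22.5% in T-bet+ cDC2. The spread within a group (SD 1.06, 1.12 and 0.322 points, n = 3) was small against the distances of 34.4 points between cDC1 and T-bet- cDC2 and 26.7 points between the cDC2 subsets. In MLN the share was 81.8%, 78.3% and 76.5% in cDC1, 41.2% and 38.6% in T-bet- cDC2 and 19.96% and 22.6% in T-bet+ cDC2, again without overlap and including both libraries that stood apart. The sum of both β chains was 1128 ± 143 CPM in spleen cDC1, 1862 ± 243 in T-bet- cDC2 and 1761 ± 154 in T-bet+ cDC2 (SD, n = 3). An exact two-sided permutation test of each pair of spleen groups gave p = 0.1, the smallest value that 3 against 3 libraries allow, and the ratio was chosen after the values were seen.

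H2-DO, the restraint on H2-DM, was also unequal. H2-Oa stood at 427, 277 and 380.3 CPM in spleen cDC1, at 690.4, 1022 and 576 in T-bet- cDC2 and at 1148, 820.5 and 1051 in T-bet+ cDC2, so that both cDC2 subsets lay above cDC1 and overlapped each other. H2-Ob was at 398, 369.9 and 465 CPM in cDC1, 314, 302 and 321 in T-bet- cDC2 and 580.4, 539.6 and 521 in T-bet+ cDC2. The 3 groups did not overlap for H2-Ob, with T-bet+ cDC2 highest and T-bet- cDC2 lowest.

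H2-Oa was 2.79-fold higher in T-bet+ cDC2 than in cDC1 (log2 fold change 1.48, SE 0.26, edgeR adjusted p = 0.00375) and 2.11-fold higher in T-bet- cDC2 than in cDC1 (1.08, SE 0.26, adjusted p = 0.0201). The second of these calls was lost with the replicate block (adjusted p = 0.0614), without cDC1 replicate 2 (adjusted p = 0.0749) and without T-bet- replicate 2 (adjusted p = 0.0837). Between the cDC2 subsets H2-Ob was 1.76-fold higher in T-bet+ cDC2 (0.81, SE 0.16, adjusted p = 0.0181). The H2-Ob call was lost when any one of T-bet+ replicates 1, 2 or 3 or T-bet- replicates 1 or 2 was left out and stood in 7 of the 14 alternatives. H2-Oa differed by 0.40 between the cDC2 subsets (adjusted p = 0.459), and H2-Ob differed from cDC1 by 0.41 in T-bet+ cDC2 (adjusted p = 0.104) and by -0.40 in T-bet- cDC2 (adjusted p = 0.129), neither of which passed.

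Against the α chain of H2-DM, H2-Oa gave a ratio of 0.311, 0.311 and 0.353 in spleen cDC1, of 0.505, 0.546 and 0.518 in T-bet- cDC2 and of 1.00, 1.01 and 1.00 in T-bet+ cDC2. In MLN the ratio was 0.348 ± 0.0451 (SD, n = 3) in cDC1, 0.469 ± 0.0255 (n = 2) in T-bet- cDC2 and 1.08 ± 0.104 (n = 2) in T-bet+ cDC2. The ratio thus rose in the same order of subsets in both tissues without overlap, and it too was chosen after the values were seen. In spleen its exact permutation p was 0.1, the smallest possible, for each pair.

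The level of Ciita, the coactivator, passed the test in no spleen comparison. It stood at 614, 726 and 1247 CPM in spleen cDC1, at 837, 755 and 857 in T-bet- cDC2 and at 586, 571 and 681 in T-bet+ cDC2. The T-bet+ libraries were all below the T-bet- libraries, and cDC1 overlapped both. Ciita differed by -0.41 between T-bet+ and T-bet- cDC2 (SE 0.25, adjusted p = 0.435), by -0.49 between T-bet+ cDC2 and cDC1 (adjusted p = 0.232) and by -0.08 between T-bet- cDC2 and cDC1 (adjusted p = 0.872). The highest value, in cDC1 replicate 3, came from 1 of the 3 spleen libraries in which levels relative to the mean of the spleen libraries fell with GC content. GC content is here the highest GC share of any short stretch of a gene's transcripts. Spearman's rho was -0.30, -0.48 and -0.28 in cDC1 replicate 3 and T-bet- cDC2 replicates 1 and 2, against 0.18 to 0.30 in the other 6. The lowest H2-Ab1 value, 18349 CPM, was in T-bet- replicate 1, also among the 3. T-bet- cDC2 replicates 1 and 2 also held the highest spleen values of Cd74, H2-Aa and H2-Eb1. The part of this library property in the results was not tested beyond a fit with it as a term, which gave 2, 3 and 4 calls among the 10 in T-bet+ against T-bet- cDC2, T-bet+ cDC2 against cDC1 and T-bet- cDC2 against cDC1 and lost H2-Eb1 in the last (adjusted p = 0.0542).

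**Figure D3:**
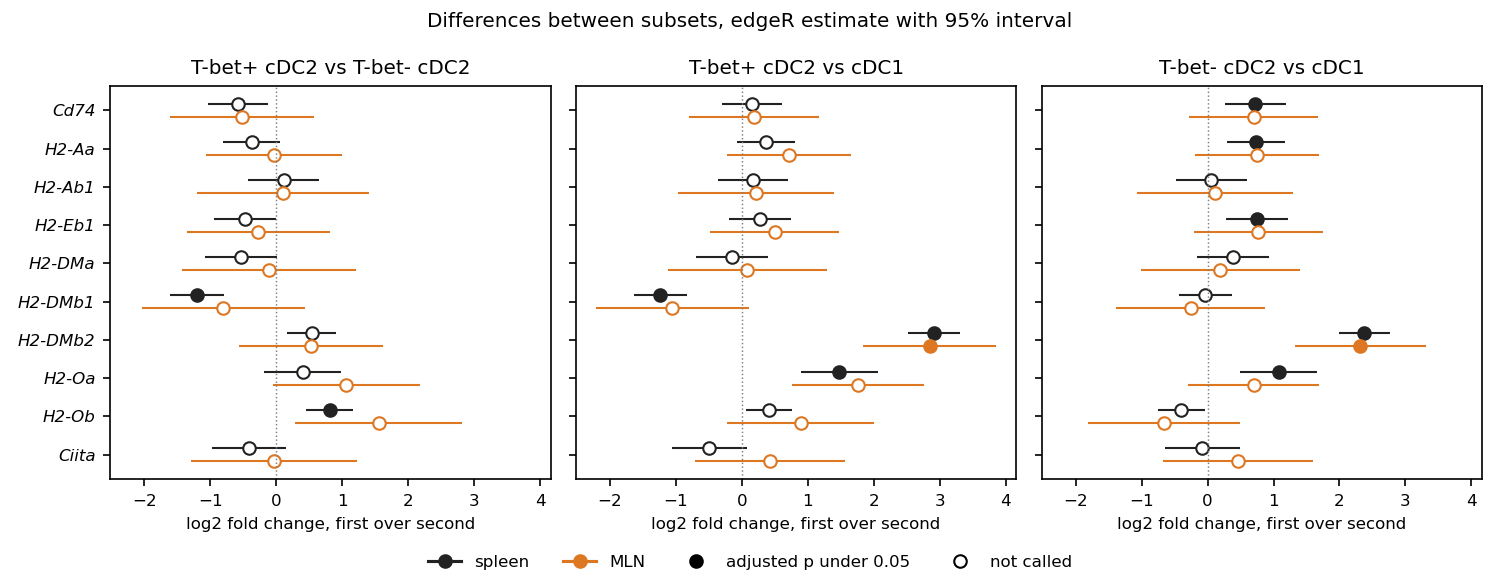
Log2 fold change of the 10 genes in each comparison of subsets with its 95% interval from edgeR, spleen in black and MLN in orange; filled points have an adjusted p below 0.05. In spleen 2, 3 and 5 of the 10 genes passed, and in MLN 0, 1 and 1.

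In all, 2 of the 10 genes differed between spleen T-bet+ and T-bet- cDC2, 1 in each direction, against 5.38% of 14377 genes tested (1.95% higher and 3.44% lower). The median log2 difference of the 10 was -0.39, beside -0.01 over all genes, and -0.22 without T-bet- replicate 2. Without T-bet- replicate 3 alone, 5 passed: H2-Ob higher and H2-Aa, H2-Eb1, H2-DMb1 and Cd74 lower in T-bet+ cDC2. The libraries of both groups did not overlap in 4 of the 10 genes, beside 27% of all genes. Between T-bet+ cDC2 and cDC1, 3 genes differed, 2 higher and 1 lower, against 18.2% of all genes (9.97% higher and 8.2% lower), with a median of 0.22 beside 0.03, and 5 genes did not overlap, beside 39.9%. This median became 0.34, 0.03 and 0.11 without cDC1 replicate 1, cDC1 replicate 2 and T-bet- replicate 3. Between T-bet- cDC2 and cDC1, 5 genes were higher and none lower, against 15.9% of all genes (9.65% higher and 6.2% lower), with a median of 0.55 beside -0.01 that became 0.30 without T-bet- replicate 2. Their groups did not overlap in 6 genes, beside 29.8%. The count of 5 fell to 1 without cDC1 replicate 2 or T-bet- replicate 2, to 2 without cDC1 replicate 1, T-bet- replicate 1 or T-bet+ replicate 3, and to 3 without cDC1 replicate 3 or T-bet+ replicate 1 or 2. Shares over all genes in the fits with a library left out are not given here. With the GC property of the libraries as a term, the medians of the 10 were -0.16, 0.33 and 0.41 in the order of these comparisons.

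Among the genes that prepare antigen for loading, the processing enzymes differed between all pairs of spleen subsets. Of 7 listed, 6 were higher in spleen T-bet- cDC2 than in cDC1: Ctss, Ctsl, Ctsb and Ctsd, which encode cathepsins, Lgmn, which encodes asparaginyl endopeptidase, and Ifi30, a thiol reductase. Their log2 differences were 1.99, 2.60, 0.59, 2.80, 2.64 and 1.91, and the median of the list was 1.99. In T-bet+ cDC2 against cDC1, 4 of the 7 were higher, Ctss by 0.92, Ctsl by 1.69, Ctsd by 1.89 and Ifi30 by 1.58. In T-bet+ against T-bet- cDC2, 3 were lower, Ctss by -1.08, Ctsb by -0.84 and Lgmn by -1.88 on the log2 scale. Cathepsin S trims the invariant chain, and Ctss stood at 636 ± 58.7 CPM in cDC1, 2531 ± 366 in T-bet- cDC2 and 1198 ± 94.1 in T-bet+ cDC2 (SD, n = 3). Of the 5 monocyte and macrophage markers, 3 were higher and 0 lower in spleen T-bet- cDC2 than in cDC1. In T-bet+ cDC2 against cDC1, 2 were higher and 1 lower, and against T-bet- cDC2, 0 were higher and 3 lower. The part of such cells in the result was not tested.

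Of the 3 genes of class II turnover, Cd83, whose product shields surface class II from the ubiquitin ligase March1, was higher in spleen T-bet+ cDC2 than in T-bet- cDC2 (0.76, adjusted p = 0.0249) and cDC1 (0.66, adjusted p = 0.0179), and March1 and March8 passed in no spleen comparison. Of the 5 regulators of Ciita listed, Irf8 and Irf4 changed. Irf8 stood at 4028, 3861 and 2698 CPM in cDC1, 153, 255 and 447 in T-bet- cDC2 and 63.3, 50.5 and 76.2 in T-bet+ cDC2, and was lower in T-bet+ than in T-bet- cDC2 by -2.17 (adjusted p = 0.00979). Irf4 ran the other way against cDC1, by 4.91 in T-bet+ cDC2 and 3.36 in T-bet- cDC2. Of the 7 genes for the factors that bind the X and Y boxes, Rfxank alone passed, higher in both cDC2 subsets than in cDC1 by 1.16 and 1.12, and none passed between the cDC2 subsets.

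Of the 6 neighbouring genes of the class II region, 1 was higher and 3 were lower in each spleen cDC2 subset than in cDC1. H2-Eb2, a class II β chain gene beside H2-Eb1, was at 9.64 ± 5.71 CPM in spleen cDC1, 63.5 ± 18.7 in T-bet- cDC2 and 66.8 ± 11.6 in T-bet+ cDC2, higher in both cDC2 subsets than in cDC1 by 2.72 and 2.79. Psmb9, Tap1 and Tap2, which serve class I presentation, were lower in both cDC2 subsets than in cDC1, by -0.72 to -1.49 on the log2 scale. None of the 6 passed between T-bet+ and T-bet- cDC2.

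In MLN, the comparisons rested on fewer libraries and on groups that were wider. H2-DMb2 was at 174, 74.2 and 110.5 CPM in cDC1, 550.3 and 602 in T-bet- cDC2 and 1115 and 592 in T-bet+ cDC2. Both cDC2 subsets lay above cDC1 and overlapped each other. H2-DMb2 was 7.20-fold higher in T-bet+ cDC2 than in cDC1 (log2 fold change 2.85, SE 0.44, edgeR adjusted p = 0.010005) and 4.99-fold higher in T-bet- cDC2 than in cDC1 (2.32, SE 0.43, adjusted p = 0.0214). It was the only one of the 10 genes to pass in either comparison, against 6.22% of 15298 genes (4.11% higher and 2.11% lower) and 5.79% (4.34% higher and 1.44% lower). The first call was lost without cDC1 replicate 3 and with the GC class of the libraries as a term (adjusted p = 0.0602), and the second without cDC1 replicate 2 or 3 or without either T-bet- library.

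H2-DMb1 stood at 781, 268 and 359 CPM in MLN cDC1, 386 and 379 in T-bet- cDC2 and 278 and 173 in T-bet+ cDC2. H2-Oa stood at 268, 112 and 153 CPM in cDC1, 267 and 291 in T-bet- cDC2 and 770.3 and 425 in T-bet+ cDC2. H2-Ob stood at 296, 108 and 184 CPM in cDC1, 110.4 and 129.9 in T-bet- cDC2 and 502 and 223 in T-bet+ cDC2. For all of these genes the MLN T-bet+ and T-bet- libraries did not overlap, but the 2 T-bet+ libraries lay far apart. The means of both groups had the same order as in spleen, where the H2-Oa libraries overlapped. Between MLN T-bet+ and T-bet- cDC2, edgeR called 0 of 15298 genes (0%), although 9.44% of genes had an unadjusted p below 0.05 and DESeq2 called 328 genes, none of them among the 10. H2-Ob was the 1 of the 10 with an unadjusted p below 0.05 (1.56, SE 0.55, adjusted p = 0.421). The 95% interval for H2-DMb1 ran from -2.03 to 0.43 and contained the spleen value. Groups did not overlap in 5 of the 10 genes in this comparison, beside 40.9% of all genes, in 3 between T-bet+ cDC2 and cDC1, beside 40.2%, and in 4 between T-bet- cDC2 and cDC1, beside 39.8%.

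H2-Aa stood at 10313, 4494 and 6026 CPM in MLN cDC1, 10866 and 11744 in T-bet- cDC2 and 12178 and 10431 in T-bet+ cDC2. Cd74 stood at 40867, 18747 and 24996 CPM in cDC1, 45081 and 43287 in T-bet- cDC2 and 38949 and 24672 in T-bet+ cDC2. In cDC1 both genes were highest in replicate 1, the library low in Ccr7. Ciita stood at 793, 289 and 410.4 CPM in cDC1, 654 and 673 in T-bet- cDC2 and 900.4 and 431 in T-bet+ cDC2, so that its highest values in cDC1 and in T-bet+ cDC2 were also those of the libraries low in Ccr7.

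Leaving out those 2 libraries was a selection made after seeing the data. It leaves T-bet+ cDC2 with 1 MLN library, so only log2 differences are given. In MLN T-bet- cDC2 against cDC1 they were 1.19 for H2-Aa, 1.25 for H2-Eb1, 2.73 for H2-DMb2, 1.16 for H2-Oa, 1.10 for Cd74 and 1.01 for Ciita. H2-DMa gave 0.84, H2-Ab1 0.62 and H2-DMb1 0.37, and H2-Ob alone was negative, at -0.20. In T-bet+ cDC2 against cDC1, H2-DMb2 differed by 2.69, H2-Oa by 1.69 and H2-Aa by 1.00, and H2-DMb1 alone was negative, at -0.85. Between T-bet+ and T-bet- cDC2, H2-Oa differed by 0.53 and H2-Ob by 0.81, and the rest of the 10 were negative.

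Of the other pathway genes, Ctss, Ctsl and Ctsd were higher in MLN T-bet- cDC2 than in cDC1, by 1.36, 2.33 and 2.69, and none of the 7 processing enzymes passed between MLN T-bet+ cDC2 and cDC1. H2-Eb2 was higher in both MLN cDC2 subsets than in cDC1, by 3.38 in T-bet+ and 2.87 in T-bet- cDC2, and Irf8 was lower in T-bet+ cDC2 than in cDC1 by -4.22.

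**Figure D4:**
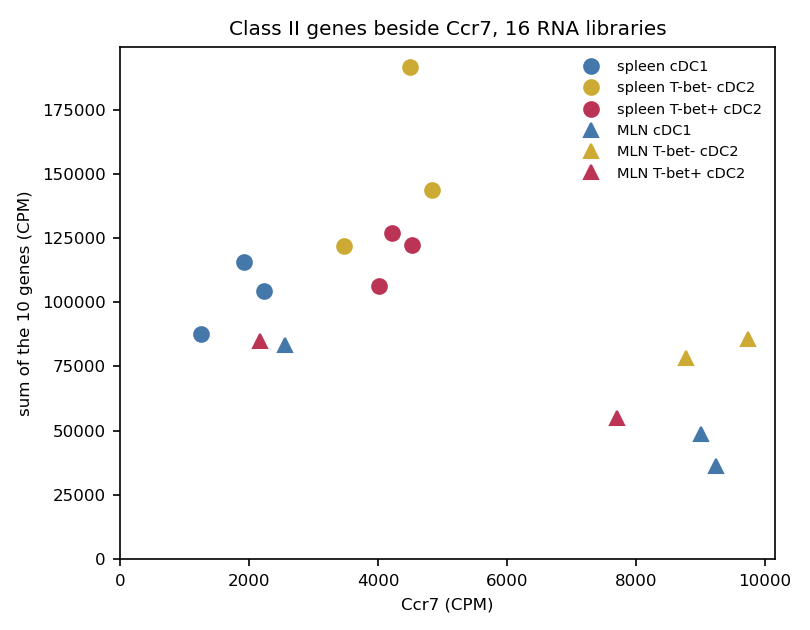
Summed CPM of the 10 genes against the CPM of Ccr7 in each of the 16 RNA libraries, spleen as circles and MLN as triangles, coloured by subset. Within MLN cDC1 and within MLN T-bet+ cDC2, the library with the lowest Ccr7 had the highest sum. Within MLN T-bet- cDC2 and within each spleen subset, the library with the lowest Ccr7 had the lowest sum.

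The summed level of the 10 genes, most of it Cd74 and the classical chains, lay lower in MLN than in spleen for each subset, although few of the genes passed the test singly. In cDC1 the sum was 115752, 87609 and 104557.5 CPM in spleen and 83525, 36244 and 48633 CPM in MLN, without overlap. In T-bet- cDC2 it was 143537, 191598 and 121858 CPM in spleen and 78222 and 85655 CPM in MLN, and in T-bet+ cDC2 it was 126792, 106305 and 122223 CPM in spleen and 84784 and 54932 CPM in MLN. The groups of each subset did not overlap between tissues. The 4 genes of mature migratory dendritic cells summed to 1450 to 2509 CPM in spleen and 3311 to 13197 CPM in MLN for cDC1. For T-bet- cDC2 the sums were 3617 to 4906 CPM in spleen and 10523 to 11809 CPM in MLN. For T-bet+ cDC2 the tissues overlapped, at 4185 to 4800 CPM in spleen and 2510 to 9536 CPM in MLN. Il4i1 stayed at or below 0.390 CPM, and the part of these genes in the result was not tested. Whether the difference lies in the tissue or in how the tissues were prepared and sequenced cannot be told apart.

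In cDC1, H2-Aa fell in MLN by 0.98 on the log2 scale (SE 0.27, edgeR adjusted p = 0.0343) and H2-Ob fell by 1.07 (SE 0.33, adjusted p = 0.0482), so 2 of the 10 genes passed, against 11.7% of 16795 genes (7.75% higher and 3.93% lower). The median over the 10 was -0.99, beside 0.01 over all genes, and 9 of the 10 had an unadjusted p below 0.05, beside 30.4% of genes. In T-bet- cDC2, H2-Oa fell by 1.45 (SE 0.39, adjusted p = 0.0417) and H2-Ob by 1.38 (SE 0.38, adjusted p = 0.0472), again 2 of 10, against 5.95% of genes (4.36% higher and 1.59% lower), with a median of -1.04 beside -0.04. In T-bet+ cDC2 edgeR and DESeq2 each called 0 of the 10, against 5.09% of genes for edgeR (3.79% higher and 1.3% lower); the median was -0.70 beside 0.00, and 4 of the 10 had an unadjusted p below 0.05. That median became -1.16 without MLN T-bet+ replicate 1 and -0.40 without MLN T-bet+ replicate 2. Ciita differed between tissues by -0.79 in cDC1, -0.30 in T-bet- cDC2 and 0.12 in T-bet+ cDC2, of which none passed (adjusted p = 0.154, 0.674 and 0.876).

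These counts depended on single libraries. Shares over all genes in the fits with a library left out are not given here, so the counts below show only how far the calls moved. Without MLN cDC1 replicate 1, all 10 genes were lower in MLN cDC1 than in spleen cDC1 and 6 in T-bet- cDC2, whereas without MLN cDC1 replicate 2 the counts were 0 and 4. Without MLN cDC1 replicate 3 or without spleen cDC1 replicate 1 or 2, none passed in either subset. Leaving out spleen T-bet- replicate 3 gave 5 and 2, and leaving out any other spleen library gave 1 in cDC1 and 0 or 1 in T-bet- cDC2. Without either MLN T-bet- library the counts were 1 and 0. Without both libraries that stood apart, which leaves T-bet+ cDC2 with 1 MLN library, the log2 differences of all 10 genes were negative in each subset. H2-Ab1 then differed between MLN and spleen by -1.58 in cDC1, -1.08 in T-bet- cDC2 and -1.50 in T-bet+ cDC2. Ciita differed by -1.36, -0.32 and -0.43 in the same order.

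Of the 7 processing enzymes, 3 differed between tissues in cDC1 and none in either cDC2 subset. In MLN cDC1, Ctsb, Lgmn and Ifi30 were higher than in spleen cDC1 by 0.94, 2.15 and 1.52, as was Irf1, which relays interferon signals to Ciita, by 2.05, while Cd83 fell by 1.17. In T-bet- cDC2, Irf1 was higher in MLN by 1.63. In T-bet+ cDC2, Cd83 fell by 1.27.

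Whether a difference between subsets itself differed between spleen and MLN was tested by an interaction term over all 16 libraries. None of the 10 genes passed in any of the 3 pairs of subsets, by edgeR or by DESeq2, and none had an unadjusted p below 0.05; the lowest adjusted p was 0.694. Over all genes, edgeR called 0.00595%, 0.0893% and 0.0357% for T-bet+ against T-bet- cDC2, T-bet+ cDC2 against cDC1 and T-bet- cDC2 against cDC1. For H2-DMb1 in T-bet+ against T-bet- cDC2 the spleen difference minus the MLN difference was -0.44 (95% interval -1.52 to 0.65), and for H2-Ob it was -0.78 (95% interval -1.88 to 0.31). These intervals leave room for sizeable differences between tissues.

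The 65 windows at these loci, each 150 bases long and centred on a summit, were unevenly spread. Ciita had 17, H2-Ob 14, H2-DMb2 7, H2-DMa and H2-DMb1 6 each, H2-Ab1 and H2-Eb1 5 each, H2-Oa 4 and H2-Aa 1, and none of the windows analysed lay at Cd74. Of these, 64 passed the filter on low counts and 43 lay within 2 kb of an annotated start. A window was called at an adjusted p below 0.01 with an absolute log2 difference above 0.5.

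Between spleen T-bet+ and T-bet- cDC2, 9 windows were more open in T-bet+ cDC2 and 0 were less open, against 6.28% of 166547 windows tested (3.92% higher and 2.36% lower). They lay at Ciita (5), H2-Ob (2), H2-DMb2 (1) and H2-Ab1 (1), and 4 of them were within 2 kb of a start. The median log2 difference of the windows tested was 0.38, beside -0.01 over all windows, and became 0.11 without T-bet+ replicate 1 and 0.59 without T-bet+ replicate 2. T-bet+ replicate 1 read higher than replicate 2 at most of these windows: 5 were called without replicate 1 and 14 without replicate 2. Without T-bet- replicate 1, 5 were called. Shares over all windows in fits with a library left out are not given here or below, so these counts show only how far the calls moved.

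Ciita has 8 annotated transcripts whose starts fall into 3 clusters, at 0 to 105, 8119 to 8220 and 9687 to 9724 bases after the first, and no window analysed lay within 2 kb of any of them. The windows that differed lay in its introns. In the window at chr16:10500629-10500778, in intron 1 of Ciita-201 and 10920 bases after the nearest start, cDC1 read 13.4 and 13.8 CPM, T-bet- cDC2 4.15 and 5.72 CPM and T-bet+ cDC2 18.6 and 19.8 CPM. T-bet- cDC2 was lowest and T-bet+ cDC2 highest, with no overlap. It was more open in T-bet+ than in T-bet- cDC2 by 1.95 (SE 0.24, edgeR adjusted p = 8.2e-09) and less open in T-bet- cDC2 than in cDC1 by -1.45 (adjusted p = 4.3e-06), while T-bet+ cDC2 and cDC1 differed by 0.50 (adjusted p = 0.0785). The windows at chr16:10500695-10500844 and chr16:10500809-10500958 overlap it and share reads with it, and differed between the cDC2 subsets by 1.83 and 1.06.

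Another region of Ciita was most open in T-bet+ cDC2 and least open in cDC1. The window at chr16:10516079-10516228, in intron 12 of Ciita-201, read 2.71 and 1.81 CPM in cDC1, 5.86 and 6.52 CPM in T-bet- cDC2 and 23.0 and 16.5 CPM in T-bet+ cDC2. Its level rose from cDC1 to T-bet- cDC2 to T-bet+ cDC2, first by 1.44 (SE 0.33, adjusted p = 0.00038), then by a further 1.66 (SE 0.25, adjusted p = 9.8e-07), and T-bet+ cDC2 stood above cDC1 by 3.11 (SE 0.30, adjusted p = 5.8e-14). It was the only window at these loci called in all 3 comparisons, which share libraries.

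A region in intron 1 of Ciita-205, 2468 bases after the first start, was least open in T-bet- cDC2. The window at chr16:10482453-10482602 read 12.4 and 14.5 CPM in cDC1, 5.74 and 5.12 CPM in T-bet- cDC2 and 10.99 and 10.5 CPM in T-bet+ cDC2. T-bet- cDC2 was lower than cDC1 by -1.31 (adjusted p = 4.7e-05) and T-bet+ cDC2 was higher than T-bet- cDC2 by 0.98 (SE 0.26, adjusted p = 0.0059), while T-bet+ cDC2 and cDC1 differed by -0.32 (adjusted p = 0.333). Its overlapping windows at chr16:10482364-10482513 and chr16:10482517-10482666 were lower in T-bet- cDC2 than in cDC1 by -1.29 and -1.24. At chr16:10499304-10499453 both cDC2 subsets were below cDC1, with 10.6 and 12.8 CPM in cDC1, 3.78 and 2.51 CPM in T-bet- cDC2 and 5.71 and 6.01 CPM in T-bet+ cDC2. Over the same groups the RNA of Ciita did not pass in any comparison, and all 3 T-bet+ libraries had less of it than all 3 T-bet- libraries.

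**Figure D5:**
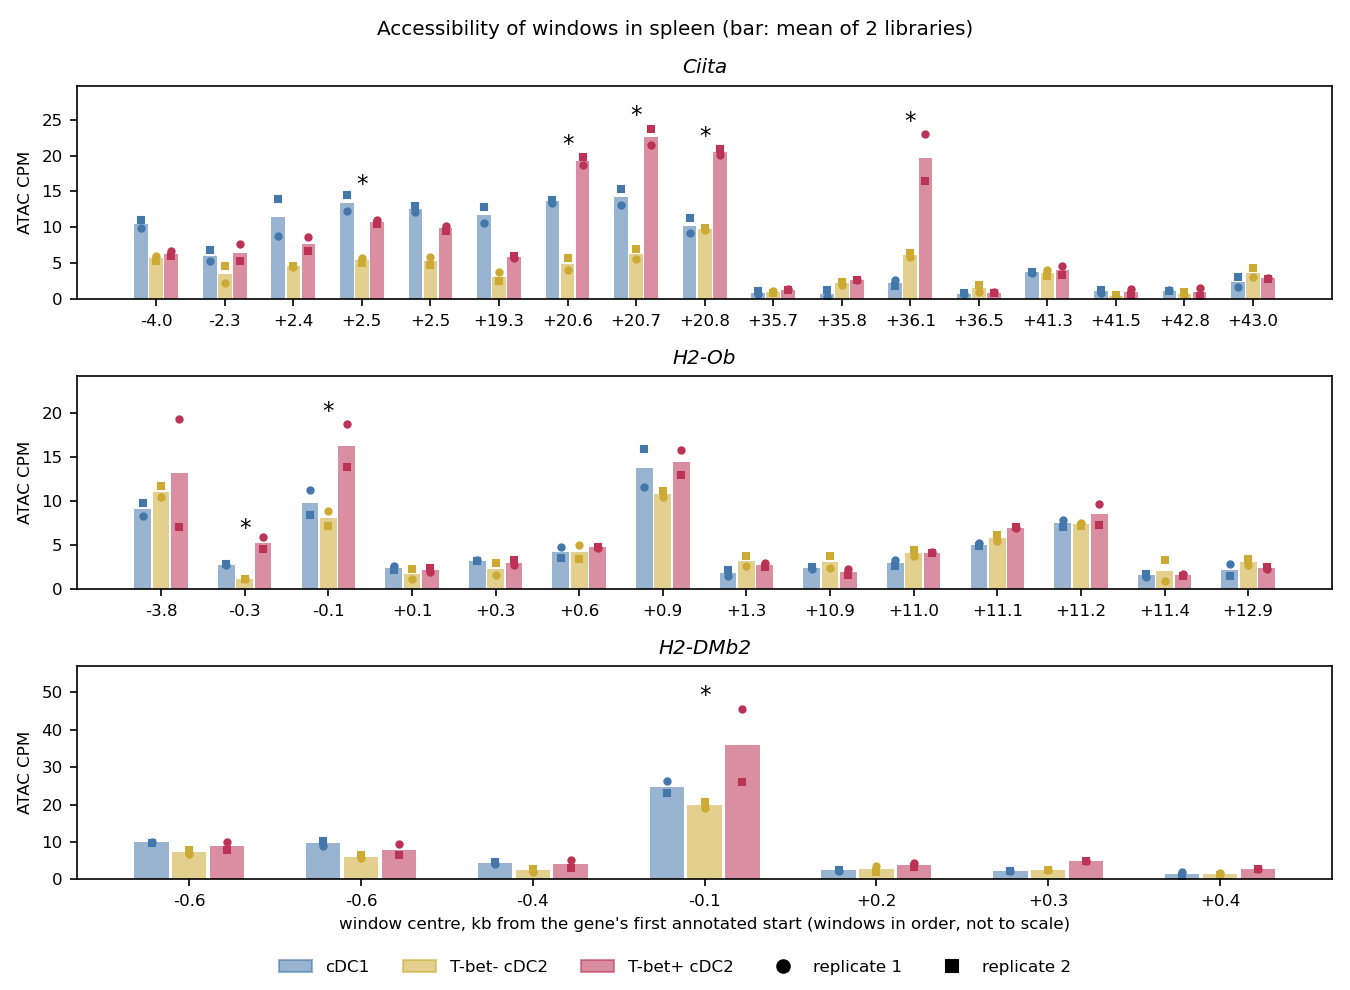
CPM of the windows at Ciita, H2-Ob and H2-DMb2 by distance from the first annotated start, with points for the 2 ATAC libraries of each spleen subset and bars at their mean; asterisks mark windows called between T-bet+ and T-bet- cDC2. At Ciita the windows marked were higher in T-bet+ cDC2, by 0.98 to 1.95 on the log2 scale.

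At H2-Ob, 2 of the 14 windows were called between the cDC2 subsets, the nearest ones before the start, both more open in T-bet+ cDC2. The window centred 270 bases before it read 2.82 and 2.85 CPM in cDC1, 1.22 and 1.204 CPM in T-bet- cDC2 and 5.93 and 4.56 CPM in T-bet+ cDC2. The window centred 86 bases before it read 11.3 and 8.41 CPM in cDC1, 8.91 and 7.22 CPM in T-bet- cDC2 and 18.8 and 13.9 CPM in T-bet+ cDC2. T-bet+ cDC2 exceeded T-bet- cDC2 by 2.099 on the log2 scale at the farther window (SE 0.40, adjusted p = 0.00010). At the nearer window the difference was 1.02 (SE 0.24, adjusted p = 0.0018). The RNA of H2-Ob had the same order of the cDC2 subsets.

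At H2-DMb2, the window centred 97 bases before the first annotated start read 26.2 and 23.0 CPM in cDC1, 19.0 and 20.8 CPM in T-bet- cDC2 and 45.6 and 26.0 CPM in T-bet+ cDC2, so that 1 of the T-bet+ libraries lay beside cDC1. It was more open in T-bet+ than in T-bet- cDC2 by 0.84 (SE 0.19, adjusted p = 0.0012). T-bet- cDC2 and cDC1 differed there by -0.31 (adjusted p = 0.275), although the RNA of H2-DMb2 differed 5.19-fold between them. No window analysed lay over the RefSeq start of H2-DMb2. At H2-DMb1, whose RNA was lower in T-bet+ cDC2, the most read window, chr17:34153054-34153203 at its start, read 15.3 and 17.6 CPM in cDC1, 13.5 and 15.1 CPM in T-bet- cDC2 and 21.01 and 14.5 CPM in T-bet+ cDC2 and differed by 0.30 between the cDC2 subsets (adjusted p = 0.417). Another window of the gene, at chr17:34157031-34157180, was less open in T-bet- cDC2 than in cDC1 by -1.27 (adjusted p = 0.0083).

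At the classical chain genes the windows were among the most read. The window at chr17:34305700-34305849, which covers the X1 core and the Y boxes printed above for H2-Eb1, read 31.8 and 30.4 CPM in cDC1, 41.1 and 35.6 CPM in T-bet- cDC2 and 54.3 and 37.7 CPM in T-bet+ cDC2, with T-bet+ cDC2 above cDC1 by 0.56 (SE 0.17, adjusted p = 0.0074). Its overlapping neighbour at chr17:34305811-34305960 differed by 0.59 (adjusted p = 0.0056). The only window given to H2-Aa, chr17:34291692-34291841 at -3943 from its start, read 16.9 and 22.5 CPM in cDC1, 22.3 and 24.2 CPM in T-bet- cDC2 and 38.7 and 27.9 CPM in T-bet+ cDC2, higher in T-bet+ cDC2 than in cDC1 by 0.76 (adjusted p = 0.0011). At H2-Ab1, the window at chr17:34258557-34258706 read 14.1 and 17.2 CPM in cDC1, 8.05 and 6.82 CPM in T-bet- cDC2 and 15.6 and 12.6 CPM in T-bet+ cDC2, lowest in T-bet- cDC2, by 0.93 on the log2 scale below T-bet+ cDC2 (adjusted p = 0.0045). The most read window of that gene, chr17:34261624-34261773, was higher in T-bet+ cDC2 than in cDC1 by 0.62 (adjusted p = 0.0043).

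The most read windows of H2-DMa and H2-Oa passed in no comparison. That of H2-DMa, chr17:34135425-34135574, read 31.1 and 33.0 CPM in cDC1, 34.3 and 35.2 CPM in T-bet- cDC2 and 54.3 and 36.3 CPM in T-bet+ cDC2. That of H2-Oa, chr17:34092658-34092807, read 4.83 and 4.79 CPM in cDC1, 5.61 and 5.12 CPM in T-bet- cDC2 and 8.41 and 7.77 CPM in T-bet+ cDC2, with both T-bet+ libraries highest, and differed by 0.59 between the cDC2 subsets (adjusted p = 0.191) and by 0.75 between T-bet+ cDC2 and cDC1 (adjusted p = 0.0429).

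Over all windows at these loci, T-bet+ cDC2 against cDC1 gave 7 higher and 1 lower, against 23% of all windows (11% higher and 12% lower), with a median of 0.19 beside -0.00 that became 0.03, 0.44 and 0.31 without T-bet+ replicate 1, T-bet+ replicate 2 and cDC1 replicate 2. Scaling by library size alone moved the median over all windows to -0.18 and the calls to 2 higher and 3 lower, so the balance of directions in this comparison depended on the scaling. The count was 2 without T-bet+ replicate 1 or without cDC1 replicate 1, 4 without cDC1 replicate 2 and 13 without T-bet+ replicate 2. T-bet- cDC2 against cDC1 gave 1 higher and 8 lower, against 17.9% (7.32% higher and 10.6% lower), with a median of -0.06 beside 0.01 (-0.09 without cDC1 replicate 2 and -0.12 without T-bet- replicate 2), and 6 of the 8 lower windows lay at Ciita. The letters AGGTGTNA, a T-box motif that T-bet can bind, and TGTGGTT, a Runx motif, occurred in 1.92% and 5.23% of all 177956 windows and in none of the windows printed here.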

How the data were processed

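RNA was sequenced from 16 libraries and open chromatin from 6. Gene counts were deposited by the authors as raw reads per gene symbol: reads were aligned to mm10/GRCm38 with HISAT2 2.1.0, uniquely aligned reads were kept with SAMtools 1.9 and counted with Rsubread against GENCODE vM17. The window and peak counts deposited by the authors hold raw ATAC-seq reads, aligned with Bowtie2 2.2.5, shifted by 4 or 5 bases to the transposase cut, with peaks called by MACS2 2.1.1.20160309 on replicates together and windows of 150 bases centred on summits. The score column deposited by the authors with the peaks is 0 throughout, and the deposited −log10 p-value of each summit (its unit read from the values) was not used.

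Groups followed the sample labels, although 1 sentence of the study's methods swaps RFP+ and RFP- between the cDC2 subsets. Counts were tested with edgeR 4.0.16 in R 4.3.3 (quasi-likelihood test, TMM scaling, filterByExpr, Benjamini-Hochberg adjustment over all features tested): 1 fit per tissue, 1 over all 16 RNA libraries for tissues and interactions, called at an adjusted p below 0.05, and 1 over the 6 ATAC libraries. The study's own tests used DESeq2, which was run as an alternative (version 1.42.0). The library totals given with the results set the precision of each count, and the tests were checked on simulated data. RefSeq promoters and a GRCm38.p6 genome gave the sequences.

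All 10 genes are named. Other genes come from lists for antigen processing, class II turnover, factors of the X and Y boxes, Ciita regulators, neighbouring genes and cell type markers. Windows named are the most read at each gene and those called, and the genes most like 4 members are the 3 with the highest Pearson correlation over the 16 libraries. The members and lists were chosen with earlier results of these data known. The ratios, the fits without the 2 MLN libraries low in Ccr7 and those with the GC class in MLN were chosen after seeing the data. Alternatives were DESeq2, its size factors, scaling by library size, no filter, replicate blocks, whole peaks, another assignment of windows to genes, a larger minimum fold and leaving out each library.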

Additional observations from a re-analysis of the deposited data

How the results depend on the processing

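Counts of the 10 genes, or of the windows at them, that passed are given here beside the value reported. Totals over all genes or windows are not given for the fits with a library left out. In spleen T-bet+ against T-bet- cDC2 (2), 1 gene passed with no filter on low counts and 1 with the replicate block, and 1 to 5 with a library left out; over all genes 774 passed, against 1413 with DESeq2, 1521 with no filter and 356 with the block. Spleen T-bet+ cDC2 against cDC1 gave 3 under every alternative run. For T-bet- cDC2 against cDC1 (5), DESeq2 gave 2, the replicate block 1 and leaving out a library 1 to 5. In MLN T-bet+ against T-bet- cDC2 (0), no filter gave 1, and over all genes 0 passed, against 328 with DESeq2, 554 with no filter and 130 with a block by the number in the library name. In MLN T-bet+ cDC2 against cDC1 (1), DESeq2 gave 2, no filter 2, the GC class as a term 0, the block by name number 4 and leaving out 1 library 0 to 2. Over all genes 952 passed, against 2019, 2257, 409 and 2440 under the first 4 of these and 539 with the block by replicate. In MLN T-bet- cDC2 against cDC1 (1), the block by name number gave 7 and leaving out 1 library 0 to 1. Over all genes 885 passed, against 1730 with DESeq2, 2012 with no filter and 515 and 2477 with the blocks. Between tissues, cDC1 (2) gave 7 with DESeq2, 7 with no filter, 4 with the replicate block and 0 to 10 with 1 library left out (all genes 1961, against 3513 with DESeq2 and 3397 with no filter). T-bet- cDC2 (2) gave 5 with DESeq2, 6 with no filter and 0 to 6 with 1 library left out (all genes 1000, against 2243 and 2435). T-bet+ cDC2 (0) gave 1 with no filter and 0 to 0 with 1 library left out (all genes 855, against 2704 with DESeq2 and 2875 with no filter). The interactions gave 0 under each alternative run, while over all genes 1, 15 and 6 became 39, 234 and 114 with DESeq2. For windows in T-bet+ against T-bet- cDC2 (9), DESeq2 and whole peaks each gave 5 and leaving out a library 5 to 14; in T-bet+ cDC2 against cDC1 (8), DESeq2 gave 3, library size only 5, whole peaks 5, an absolute log2 difference over 1 gave 3 and leaving out a library 2 to 13; T-bet- cDC2 against cDC1 (9) gave 6 to 12 throughout. Over all windows DESeq2 called 4844, 23964 and 17143, against 10460, 38316 and 29773. Of 512 values of single genes and windows under alternatives, 372 kept their direction and their side of the threshold, 140 kept the direction only and 0 reversed. The cause of these changes was not tested. Samples of the same number did not deviate together in every pair: correlations of their deviations ran from -0.41 to 0.14 in spleen (9 pairs), -0.08 to 0.38 in MLN (6 pairs, or 0.03 to 0.38 over 5 pairs by name number) and -0.04 to 0.02 in ATAC-seq (6 pairs). By name number all 5 MLN pairs were positive and 2 were at or below 0.08. The highest, 0.38, was that of both libraries low in Ccr7, which carry the number 1. In groups of 2 libraries the deviations mirror each other, so values between such groups repeat or only change sign and are not independent. No label says what a number marks, and the block was kept as an alternative.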

Other observations

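Among 8096 genes with a mean of at least 3 on the log2 CPM scale, those whose levels were most like H2-DMb2 over the 16 RNA libraries were Cyp4f16 (Pearson's r 0.991), Spns3 (0.986) and Ifitm6 (0.985). For H2-DMb1 they were Tmed10 (0.974), Khk (0.973) and the pseudogene Tmed10-ps (0.969), for H2-Oa RP24-272D15.1 (0.975), Rac2 (0.975) and Napsa (0.974), and for Ciita Hk2 (0.909), Sfxn2 (0.884) and Txlna (0.873). Between members, H2-Aa and H2-Eb1 gave 0.988, H2-Eb1 and Cd74 0.971, H2-DMb2 and H2-Oa 0.888 and H2-DMb1 and H2-DMb2 -0.10. The 16 libraries fall into 6 groups and share the differences between subsets and tissues, so these values describe the libraries and carry no test.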
